A study of Mus musculus with 8 samples.

Results

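The laminins and the other non-collagen proteins of the basement membrane were followed through 10 genes chosen by name, *Lama2*, *Lama4*, *Lama5*, *Lamb1*, *Lamb2*, *Lamc1*, *Nid1*, *Nid2*, *Hspg2* and *Agrn*. All 10 were among the 15111 genes of the table. RNA was sequenced from primary dermal fibroblasts of adult mice killed at 10 weeks of age, in 4 libraries from control and 4 from TGFβ1FKO mice. TGFβ1FKO mice (Tgfb1fl/fl:Col1a2-CreERT) carried floxed *Tgfb1* alleles and a tamoxifen-dependent Cre recombinase driven by the *Col1a2* promoter, which is also active in other collagen-producing mesenchymal cells. Controls (Tgfb1fl/fl) carried the floxed alleles without Cre, so effects of Cre itself and of the deletion cannot be told apart. All mice were fed tamoxifen, and all cells were grown first with serum and then for 72 h in serum replacement medium on fibronectin. Back skin was digested with its epidermis, and the methods describe no sorting of these cells.

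Basement membranes are thin sheets of matrix beneath epithelia and around blood vessels, nerves and muscle fibres. Laminins, trimers of an α, a β and a γ chain, polymerise at the cell surface, nidogens link them to collagen IV, and the heparan sulfate proteoglycans perlecan and agrin bind to this scaffold. In skin, dermal fibroblasts supply laminin chains and nidogens, and TGFβ is a known regulator of matrix genes, so the comparison asks which of these transcripts differ when fibroblasts lose their own TGFβ1.

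The control libraries held from 16988998 to 21806579 reads on the listed genes, and the TGFβ1FKO libraries from 17445002 to 23071528. Values are normalised counts, that is, reads scaled by a factor for each library from DESeq2's standard workflow. Nothing in the labels or methods says that the libraries came from separate mice, so the p-values measure only the spread between these libraries, which may be technical. *Tgfb1* itself was read at 1401, 1298, 1483 and 1314 normalised counts in control replicates 1 to 4 and at 326.4, 259.9, 228.4 and 294.7 in TGFβ1FKO replicates 1 to 4. Every TGFβ1FKO library lay below every control library, so the labels matched the target gene. The log2 fold change of *Tgfb1* was -2.31 ± 0.10 (SE; adjusted p = 1.53e-07, limma).

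With *Tgfb1* at this low level, the 10 basement membrane genes differed little. None passed an adjusted p-value of 0.05 with an absolute log2 fold change over 0.6 in limma's test, thresholds that 13 of all 15111 genes (0.0860%) passed. By unadjusted p-value under 0.05, *Agrn* was lower and *Hspg2* higher, which is 1 of 10 in each direction against 3.87% of all genes lower and 3.59% higher. Counts of the members called were also 0 with edgeR's test and with both DESeq2 tests at the same thresholds. No member's groups were free of overlap, whereas 2.10% of all genes were lower and 1.69% higher without overlap. The log2 fold change was above 0 in 9 of the 10 members, as in 50.9% of all genes, and the median was 0.08 against 0.00 over the table. These 9 stayed above 0 under each scaling tried, but *Lama4*, *Lama5*, *Lamb1* and *Nid1* reached 0 or fell below it when single libraries were left out.

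**Figure D1:**
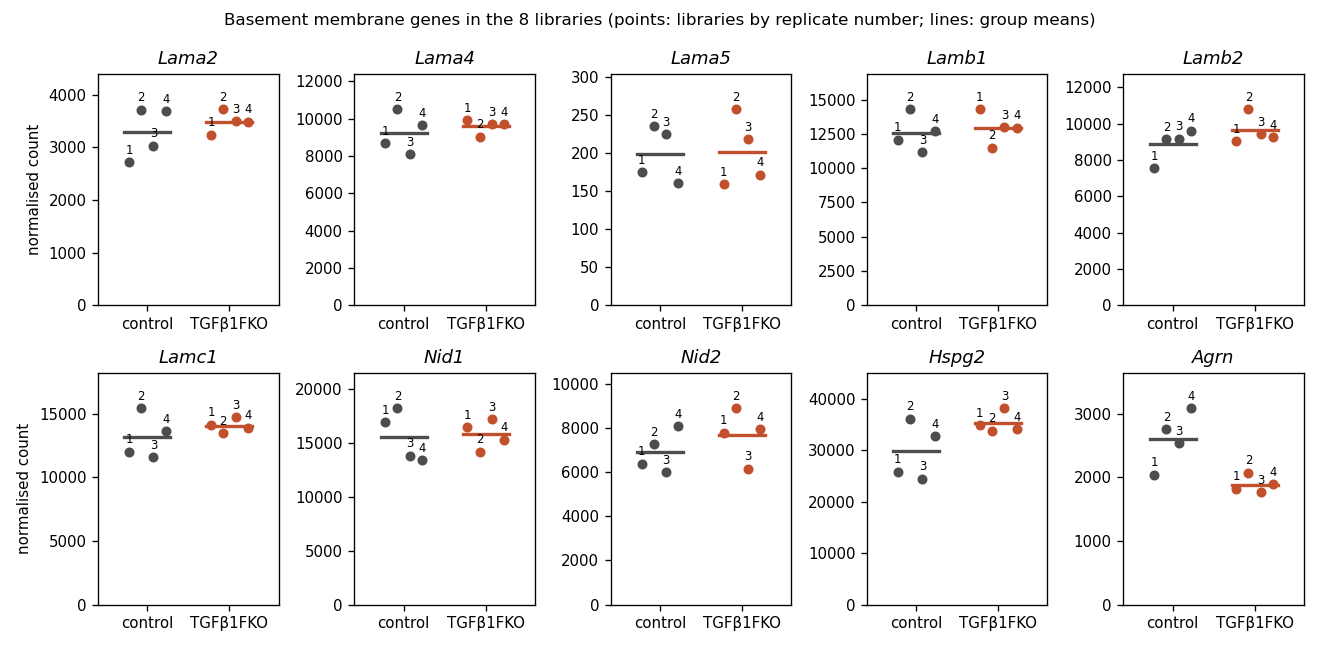
Normalised counts (y axis, from 0) of the 10 genes in control and TGFβ1FKO fibroblasts (x axis), with 4 points per group numbered by replicate and lines at the group means. The groups overlap in every panel, and *Agrn* is the only gene whose TGFβ1FKO mean (1887) lies below its control mean (2604).

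Among the laminin α chains, which carry the binding sites for cell surface receptors, *Lama4* was the main transcript. It had 8667, 10519, 8101 and 9652 normalised counts in control replicates 1 to 4 and 9932, 9031, 9699 and 9686 in the TGFβ1FKO replicates. All TGFβ1FKO values lay within the control range, and the log2 fold change was 0.06 with a 95% confidence interval from -0.10 to 0.22. *Lama2*, whose chain joins muscle fibres and Schwann cells to their basement membranes, was read at 2715, 3716, 3032 and 3685 in controls and at 3244, 3731, 3501 and 3486 in TGFβ1FKO libraries. Only TGFβ1FKO replicate 2 stood above the control range, and by little. The log2 fold change of *Lama2* was 0.10, with an interval from -0.10 to 0.30. It was 0.01 without control replicate 1 and 0.16 without control replicate 2 or 4. *Lama5*, the α chain of most epithelial and vascular basement membranes, was scarce at 198.6 ± 36.9 (SD, n = 4) in controls and 201.8 ± 45.3 (SD, n = 4) in TGFβ1FKO fibroblasts. Its TGFβ1FKO libraries spread beyond the control range at both ends, from 159.1 to 257.9. Its log2 fold change of 0.01 had the widest interval of the laminin chains among the members (from -0.35 to 0.38).

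The β chains and the γ1 chain, which with an α chain complete the trimer, were abundant in both groups. *Lamb1* had 12568 ± 1338 normalised counts (SD, n = 4) in controls and 12945 ± 1146 (SD, n = 4) in TGFβ1FKO fibroblasts. *Lamb2* stood at 8868 ± 900.7 and 9635 ± 801.7 (SD, n = 4 each). *Lamc1*, the γ chain of nearly all laminins outside the epidermis, was read at 11993, 15410, 11597 and 13619 in control replicates and at 14126, 13481, 14699 and 13882 in TGFβ1FKO replicates. Control replicates 1 and 3 were the low *Lamc1* libraries, and all TGFβ1FKO libraries lay inside the control range. The log2 fold changes of *Lamb1*, *Lamb2* and *Lamc1* were 0.04, 0.12 and 0.10, and none of their intervals reached beyond 0.29.

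Levels of different genes can be compared only per length, here as normalised counts per kb of exons. On that scale *Nid1*, at 2245 ± 338.2 (SD, n = 4), and *Hspg2*, at 2085 ± 390.6 (SD, n = 4), were the highest members in controls and did not differ beyond their spread. *Lamc1* (1590 ± 210.3), *Lamb2* (1458 ± 148.1), *Nid2* (1342 ± 179.5) and *Lamb1* (1267 ± 134.9) followed as a group of neighbours whose SDs overlapped (n = 4 each). *Lama4* came next at 765.2 ± 88.6, before *Agrn* at 280.5 ± 47.2 and *Lama2* at 201.2 ± 30.3, with *Lama5* last at 17.4 ± 3.24 (SD, n = 4 each). Ranked by control level among 15105 genes with a known length, *Nid1* was at place 366, *Hspg2* at 401 and *Lama5* at 11446. In TGFβ1FKO fibroblasts the order was the same except that *Hspg2* (2465 ± 139.5) stood before *Nid1* (2275 ± 190.5) and *Lama2* (213.6 ± 12.2) before *Agrn* (203.3 ± 14.5). Length itself is uncertain. With the longest transcript in place of all exons, the control level of *Lamb1* was 2173, that of *Lama4* 1527 and that of *Lama2* 341.9 per kb. *Lamb1* then stood at place 2 in place of 6 among the members, *Lama4* stood before *Nid2* (1424), and *Lama2* before *Agrn* (302.4).

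**Figure D2:**
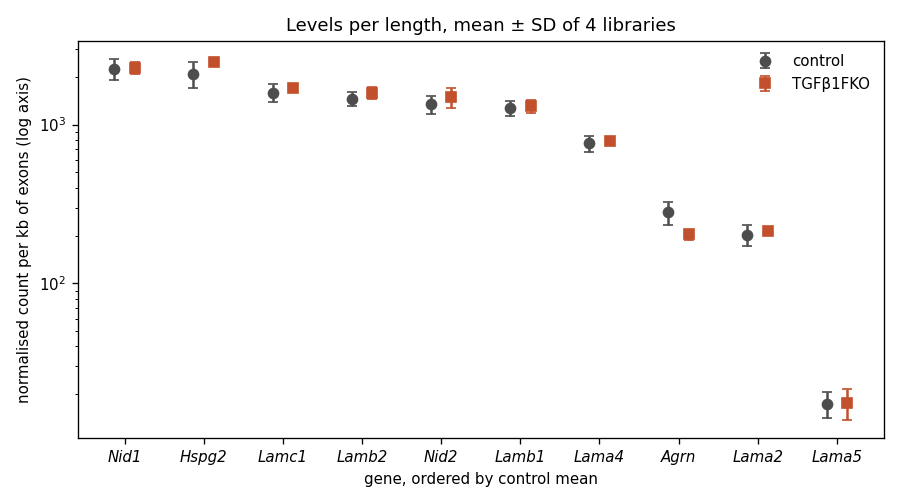
Normalised counts per kb of exons (y axis, log scale) of the 10 genes (x axis, in the order of their control means), with means and SDs of 4 control (circles) and 4 TGFβ1FKO libraries (squares). Levels run from 2245 for *Nid1* to 17.4 for *Lama5* in controls, and only *Agrn* shows means further apart than both SDs.

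The mix of laminin chains was alike in both groups. Of the α chain level per kb, summed over all 5 α genes, *Lama4* made up 77.6 ± 1.47% in controls and 77.2 ± 1.92% in TGFβ1FKO fibroblasts (SD, n = 4 each). *Lama2* made up 20.4 ± 1.41% and 20.8 ± 1.51%, and *Lama5* 1.78 ± 0.371% and 1.73 ± 0.414% (SD, n = 4 each). Of the β level, *Lamb1* made up 46.3 ± 3.29% in controls and 45.0 ± 4.11% in TGFβ1FKO fibroblasts (SD, n = 4 each), and *Lamc1* held 97.1% of the γ level in both groups. Which β chain led depended on the length used, since with the longest transcript *Lamb1* made up 57.7 ± 3.23% and 56.4 ± 4.13% (SD, n = 4 each). Summed over each class, control fibroblasts had 986.3 ± 115.6 α, 2736 ± 222.7 β and 1637 ± 209.0 γ counts per kb (SD, n = 4 each), so β transcripts outnumbered α transcripts in every library. TGFβ1FKO sums were 1028 ± 18.0, 2900 ± 53.2 and 1749 ± 58.1 (SD, n = 4 each), and every library lay inside the control range. The remaining chains, 5 genes, were all in the table, and 0 of the 5 passed an unadjusted p-value of 0.05 in limma's test.

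Nidogens, the linkers between the laminin and collagen IV networks, overlapped widely between the groups. *Nid1* had 16910, 18212, 13805 and 13413 normalised counts in control replicates 1 to 4 and 16478, 14194, 17205 and 15314 in the TGFβ1FKO replicates. The TGFβ1FKO libraries all lay inside the wide control range, in which replicates 3 and 4 were low and replicates 1 and 2 high. *Nid2* was read at 6390, 7273, 6014 and 8089 in controls and at 7808, 8907, 6165 and 7960 in TGFβ1FKO libraries. Here TGFβ1FKO replicate 2 was the highest of all libraries, while replicate 3 lay among the lowest controls. The log2 fold changes were 0.03 for *Nid1* (interval from -0.18 to 0.24) and 0.15 for *Nid2* (from -0.09 to 0.39). Exons of *Nid2* share 8.4% of their bases with *Rtraf* on the opposite strand, and the libraries were non-directional, so reads from these bases cannot be assigned to either gene.

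Perlecan and agrin, the heparan sulfate proteoglycans, were the members that differed most, and in opposite directions. *Hspg2*, which encodes perlecan, lies on chromosome 4 of GRCm38 from 137468769 to 137570630 and was read at 25857, 36191, 24482 and 32803 normalised counts in control replicates 1 to 4. TGFβ1FKO replicates had 34938, 33861, 38182 and 34094. Control replicates 1, 3 and 4 lay below all TGFβ1FKO libraries, and control replicate 2 lay among them. The log2 fold change was 0.26 ± 0.11 (SE; adjusted p = 0.653, limma), with an interval from 0.02 to 0.50. It was 0.17 without control replicate 3 and 0.36 without control replicate 2, and the groups were then free of overlap only in the latter case, as 3.79% of all genes were, higher, without that library.

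*Agrn* (chromosome 4 of GRCm38, from 156165290 to 156197488, minus strand) encodes agrin, which clusters acetylcholine receptors when made by motor neurons and links laminin to dystroglycan in other tissues. Its control replicates 1 to 4 had 2042, 2757, 2533 and 3085 normalised counts, and its TGFβ1FKO replicates 1821, 2073, 1763 and 1891. TGFβ1FKO values were tightly grouped and 3 of 4 were lower than every control, the exception being replicate 2, which lay just above control replicate 1. TGFβ1FKO fibroblasts had 72.5% of the control mean. The log2 fold change was -0.45 ± 0.10 (SE), with an interval from -0.67 to -0.23, which does not reach 0 but includes the threshold of 0.6. Its adjusted p-value was 0.216 with limma, 0.178 with edgeR and 0.00832 with DESeq2's Wald test against 0. Over the 17 alternative fits it ranged from 0.00832 to 1.00, the latter in DESeq2's test against 0.6, a stricter hypothesis. By the DESeq2 test with no fold threshold, *Agrn* was thus the 1 member of 10 called lower, where 0.410% of all genes were. Leaving out control replicate 1 or TGFβ1FKO replicate 2 freed the groups of overlap, with log2 fold changes of -0.56 and -0.50 (adjusted p = 0.0264 and 0.238, limma). Without any of the other libraries the groups overlapped and the adjusted p-value lay between 0.262 and 0.585 (limma). With a library left out, between 3.04% and 4.33% of all genes were lower without overlap.

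**Figure D3:**
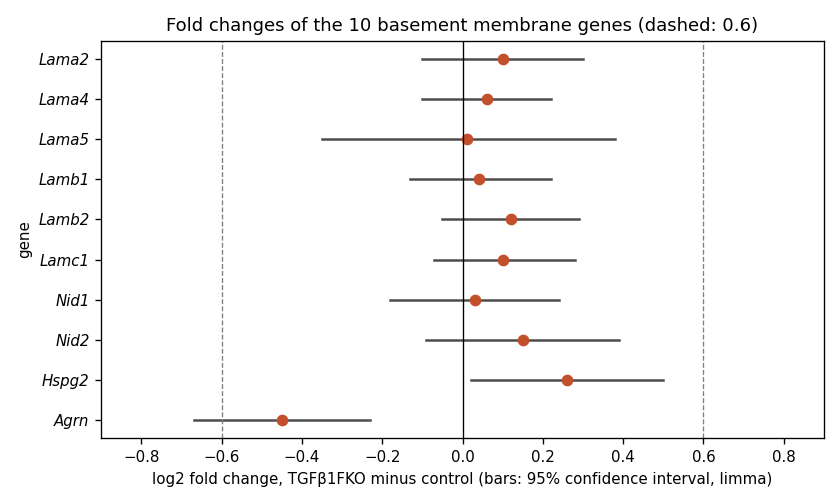
Log2 fold change between TGFβ1FKO and control fibroblasts (x axis) for each of the 10 genes (y axis), with points for limma's estimates and bars for 95% confidence intervals of 4 against 4 libraries. *Agrn* at -0.45 and *Hspg2* at 0.26 are the genes whose interval leaves out 0, and no estimate reaches 0.6 in size (dashed lines).

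The windows of 250 bases before the starts of *Agrn* and *Hspg2* are shown because this pair parted between the groups. They were taken from RefSeq promoters on GRCm38.p6, which held 7 of the 10 members (*Lama4*, *Lamc1* and *Nid2* had no entry), and are printed 5′ to 3′ on the gene's strand with each GC box, GGGCGG on either strand, in capitals. The main *Agrn* window is chr4:156197489-156197738 (minus strand), directly upstream of the gene. A further *Agrn* window, chr4:156186260-156186509, lies within an intron before an internal start, and the *Hspg2* window, chr4:137468553-137468802 (plus strand), overlaps the annotated gene by its last 34 bases.
Agrn, upstream: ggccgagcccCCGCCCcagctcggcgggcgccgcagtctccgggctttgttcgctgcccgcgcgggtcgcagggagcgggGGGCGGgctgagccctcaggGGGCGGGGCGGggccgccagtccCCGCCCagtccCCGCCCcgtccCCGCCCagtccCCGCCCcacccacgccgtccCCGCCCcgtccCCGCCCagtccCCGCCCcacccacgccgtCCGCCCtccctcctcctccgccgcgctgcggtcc
Agrn, internal: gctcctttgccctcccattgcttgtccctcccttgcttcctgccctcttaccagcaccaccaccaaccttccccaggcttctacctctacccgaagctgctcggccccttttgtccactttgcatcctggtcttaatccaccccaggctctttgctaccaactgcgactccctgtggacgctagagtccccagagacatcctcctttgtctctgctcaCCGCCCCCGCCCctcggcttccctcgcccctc
Hspg2: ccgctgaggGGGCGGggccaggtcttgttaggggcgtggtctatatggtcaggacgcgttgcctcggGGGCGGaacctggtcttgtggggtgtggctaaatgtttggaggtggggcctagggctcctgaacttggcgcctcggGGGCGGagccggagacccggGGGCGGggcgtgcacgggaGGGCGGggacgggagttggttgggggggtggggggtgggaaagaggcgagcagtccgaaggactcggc

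The upstream *Agrn* window was rich in G and C. It held 12 GC boxes and 83.6% G and C, the *Hspg2* window 5 boxes and 70.0%, and the internal *Agrn* window 2 boxes and 60.8%. Other members' windows ranged widely, with 4 boxes and 72.4% in *Lama5*, 1 and 64.4% in *Nid1*, 2 and 62.0% in *Lamb1*, 0 and 47.2% in *Lama2*, and 0 and 43.6% in *Lamb2*. Against the annotation, the *Lama2* window lay wholly within its own gene, those of *Lamb2*, *Lamb1* and *Nid1* overlapped theirs by 126, 59 and 51 bases, and that of *Lama5* lay upstream. Over 13823 windows of genes in the table, the median was 1 box and 59.6% G and C, 56.3% of windows held at least 1 box, and 4 windows (0.0289%) held 12 or more. CAGAC, the letters bound by SMAD proteins downstream of TGFβ receptors, was found on either strand in 40.6% of all windows and in none of these 3. Of the other members' windows, those of *Lama2*, *Lama5* and *Lamb1* held 1 match each, that of *Lamb2* 2 and that of *Nid1* 0. The TATA box TATAAA, present in 6.6% of all windows, matched in 0 of the 8 windows of members. A match or its absence describes these letters in this window only.

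A ratio of 2 genes within a library does not depend on how the libraries were scaled, and 5 ratios were compared. The log2 ratio of *Hspg2* to *Agrn* was 3.66, 3.71, 3.27 and 3.41 in control replicates 1 to 4 and 4.26, 4.03, 4.44 and 4.17 in TGFβ1FKO replicates 1 to 4. All 4 TGFβ1FKO libraries lay above all controls. The difference of 0.71 had an exact two-sided permutation p of 0.0286, the smallest that 4 against 4 libraries allow, and 0.143 after adjustment over the 5 ratios. By the same permutation test the single genes had an unadjusted p of 0.171 for *Hspg2* and 0.0571 for *Agrn*. At this number of libraries no ratio could reach an adjusted p-value under 0.05 alone, so the correction says nothing about the size of the difference. With each library left out in turn it stayed between 0.63 and 0.78. The other ratios, *Lama2* to *Lama4*, *Lama5* to *Lama4*, *Lamb1* to *Lamb2* and *Nid1* to *Nid2*, differed by between -0.12 and 0.04, less than the SD of either group, and their groups overlapped.

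**Figure D4:**
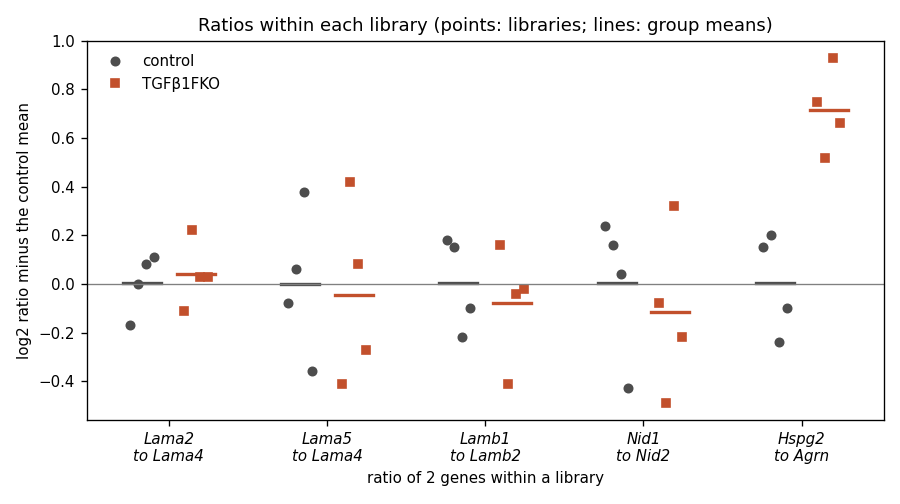
Log2 ratios of 2 genes within each library, less the control mean (y axis), for the 5 ratios (x axis), with circles for control and squares for TGFβ1FKO libraries and lines at the group means. The 4 TGFβ1FKO libraries lie above all controls for *Hspg2* to *Agrn*, with a mean 0.71 higher, and the groups overlap for the other 4 ratios.

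For 8 of the 10 members, control libraries varied more among themselves than TGFβ1FKO libraries did. Several members were high or low in the same control libraries. Control replicate 2 was the highest control library for 7 of the 10 members and control replicate 3 the lowest for 5. Summed over the 10 members, controls had 94390, 117772, 90104 and 106839 normalised counts in replicates 1 to 4, and TGFβ1FKO libraries 111844, 107853, 113880 and 108703. All TGFβ1FKO sums thus lay between the 2 highest control sums, those of replicates 4 and 2. For 8 members the coefficient of variation was larger in controls, for example 13.2% against 3.63% for *Lamc1* and 18.7% against 5.66% for *Hspg2*. It was smaller in controls for *Lama5* (18.6% against 22.4%) and *Nid2* (13.4% against 14.8%). These counts cover the 10 members only, with no share over all genes beside them.

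Other components of the basement membrane were followed by lists. Of 13 basement membrane collagens, all in the table, 0 were called, 2 were lower and 2 higher by unadjusted p-value under 0.05, and the median log2 fold change was 0.10. *Col7a1*, which anchors the epidermal basement membrane to the dermis, had 3166, 3023, 2746 and 3227 normalised counts in controls and 3231, 3793, 3725 and 3498 in TGFβ1FKO libraries. It was the 1 collagen of the list whose groups did not overlap, though TGFβ1FKO replicate 1 stood barely above the highest control (log2 fold change 0.23, adjusted p = 0.460, limma). *Col15a1*, a collagen of vascular and nerve basement membranes, had 330.4, 735.2, 917.0 and 642.0 in controls and 355.8, 466.0, 303.9 and 415.5 in TGFβ1FKO libraries. Control replicate 1 lay among the TGFβ1FKO libraries, and the log2 fold change of -0.69 (adjusted p = 0.582, limma) became -0.99 and passed both thresholds without it, but was -0.50 without control replicate 3. With each library left out, its adjusted p-value ranged from 0.0430 to 0.931 (limma). *Col4a5* and *Col18a1* had log2 fold changes of 0.31 and -0.25. *Col4a1* and *Col4a2*, named for their role as the main collagen IV chains and after their values had been seen, had 0.13 and 0.12, and *Col6a3*, the gene of the list with the highest count (not scaled for length), had 0.16.

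**Figure D5:**
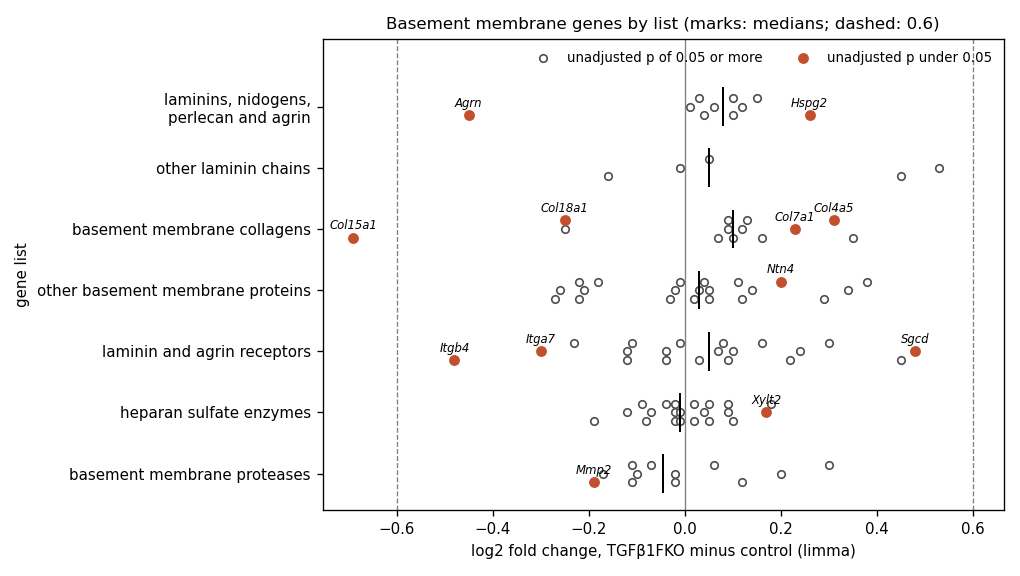
Log2 fold change between TGFβ1FKO and control fibroblasts (x axis) of each gene of the 10 members and of the lists of other basement membrane genes named on the y axis, with filled, named points where limma gave an unadjusted p-value under 0.05, open points for the rest and vertical marks at list medians. Medians of the lists shown lie between -0.04 and 0.10, and among their genes only *Col15a1* passes 0.6 in size (dashed lines).

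Among 24 other basement membrane proteins, of which *Ntn3*, *Frem2* and *Smoc1* were not in the table, 0 were called, and 9 had a log2 fold change below 0 and 12 above. *Ntn4*, a netrin that binds laminin γ chains, was the 1 gene with an unadjusted p-value under 0.05 (log2 fold change 0.20, adjusted p = 0.657, limma). *Fn1* had the highest count of the list, not scaled for length, at 186309 ± 34015 in controls and 180712 ± 16588 in TGFβ1FKO fibroblasts (SD, n = 4 each), in cells that had been plated on fibronectin.

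Receptors for laminin and agrin, listed together with dystrophin, utrophin and sarcoglycans (20 genes, all present), had 0 calls. Of these genes 2 were lower and 1 higher by unadjusted p-value under 0.05, and the median log2 fold change was 0.05. *Itgb4*, the integrin β4 chain that pairs with α6 to bind laminin, had 117.0, 179.6, 149.7 and 107.7 normalised counts in controls and 103.4, 97.3, 103.8 and 85.3 in TGFβ1FKO libraries. Its groups did not overlap, as in no other gene of the list, but the nearest libraries were 107.7 and 103.8 (log2 fold change -0.48, adjusted p = 0.555, limma). *Itga7*, a laminin-binding integrin of muscle, had a log2 fold change of -0.30, and *Sgcd*, a sarcoglycan of the dystrophin complex, of 0.48 (adjusted p = 0.658 and 0.536, limma). *Itgb1*, shared by most laminin-binding integrins, was the highest of the list, at 22830 ± 1015 and 24162 ± 1306 (SD, n = 4 each). Agrin's binding partners were named after their values had been seen. *Dag1*, dystroglycan, differed by -0.01 and *Lrp4*, the agrin receptor of muscle, by 0.30, and *Musk*, its partner kinase, stood at only 17.4 normalised counts in controls.

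Enzymes that build heparan sulfate and proteases of the basement membrane differed little. Of 21 heparan sulfate enzymes, which act on perlecan and agrin, 11 had a log2 fold change below 0 and 10 above. *Xylt2*, which starts the sugar chains on the core proteins, had 560.2 ± 35.2 normalised counts in controls and 629.9 ± 18.4 in TGFβ1FKO fibroblasts (SD, n = 4 each) and was the 1 enzyme whose groups did not overlap (log2 fold change 0.17, adjusted p = 0.632, limma). *Sulf2*, a sulfatase and the highest of the list, had -0.02. Among 15 proteases, *Tll2*, *Mmp7* and *Plg* were not in the table and *Mmp2* alone had an unadjusted p-value under 0.05 (log2 fold change -0.19, adjusted p = 0.657, limma). *Mmp14*, the protease with the highest count (not scaled for length), had -0.02. *Bmp1*, which trims laminin, perlecan and procollagen VII chains and was named after its values had been seen, was the 1 protease whose groups did not overlap, with a log2 fold change of -0.10. *Prss12*, which cleaves agrin and was named in the same way, had 27.5 normalised counts in controls and 31.8 in TGFβ1FKO fibroblasts.

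Markers of other cells are given beside the *Agrn* result, since Schwann cells and endothelial cells also make basement membrane. In bulk RNA, fewer cells of a type and less RNA per cell cannot be told apart. Of 17 Schwann cell markers, 14 were in the table (*Pmp2* and *Gfap* were among those that were not), and *Sox10* and *Foxd3* fell, with log2 fold changes of -3.01 and -3.20 (adjusted p = 0.00499 and 0.00757, limma). *Erbb3*, *Cdh19*, *Gjc3* and *L1cam* had -2.56, -2.44, -3.09 and -1.57 without passing in limma (adjusted p between 0.0580 and 0.126), but DESeq2 against 0 called all 4, and edgeR called *Erbb3* and *Gjc3* (adjusted p = 0.0482 and 0.0399, edgeR). In limma's test 11 of the 14 had an unadjusted p-value under 0.05, all lower. The list summed to 11989, 12376, 12513 and 12415 normalised counts in control replicates 1 to 4 and to 11595, 12492, 10483 and 12106 in TGFβ1FKO replicates, mostly through *Pmp22*, its most abundant gene, which fibroblasts also express (log2 fold change 0.06). Without *Pmp22* the sums were 5646, 5431, 5270 and 4378 in controls and 4801, 3671, 4080 and 4238 in TGFβ1FKO libraries. *Ncam1* and *Ngfr* made up most of these sums, with control means of 2711 and 1446 and log2 fold changes of 0.07 and -0.65. The sums thus say little about the scarcer markers of the list. *Sox10* was read at 132.5, 147.7, 207.4 and 72.1 in control replicates 1 to 4 and at 19.3, 7.25, 18.3 and 21.1 in the TGFβ1FKO replicates, without overlap. Whether these markers have a part in the *Agrn* difference between the groups was not tested.

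Of 15 endothelial markers, 14 were in the table (*Sox17* was not), none was called, and all 14 had a log2 fold change below 0, with *Pecam1* at -0.99 and *Cldn5* at -1.24 (adjusted p = 0.587 and 0.657, limma). Their sums were 758.8, 959.4, 907.0 and 610.3 in control replicates and 581.8, 664.9, 602.8 and 612.7 in TGFβ1FKO replicates, with *Tek* as the most abundant gene, at 272.1 ± 60.6 and 226.3 ± 58.3 (SD, n = 4 each). Of 14 pericyte and smooth muscle markers, 12 were in the table (*Kcnj8* and *Higd1b* were not). *Myh11* had a log2 fold change of 0.71 without overlap, with an adjusted p-value of 0.0649 in limma, 0.0497 in edgeR, 3.42e-05 in DESeq2 against 0 and 1.00 in DESeq2 against 0.6, so its call depended on the test. *Cnn1* had 0.42, *Acta2* 0.19 and *Cspg4* -0.50, and the sums, led by *Acta2*, were 59195, 56904, 59927 and 54650 in controls and 56711, 64838, 65303 and 63379 in TGFβ1FKO libraries. The part of these cells in the results on basement membrane genes was not tested.

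Keratinocyte, adipocyte and macrophage markers were mostly absent from the table or low. Only 5 of 11 keratinocyte markers were listed, without *Krt5*, *Krt14*, *Krt15*, *Krt1*, *Epcam* and *Dsg3*, and their sums were 180.7, 159.4, 178.5 and 209.4 in controls and 236.2, 297.2, 249.1 and 239.3 in TGFβ1FKO libraries. *Perp*, whose mean over all 8 libraries was the highest of the list, had a log2 fold change of 0.73, *Dsp* 1.01 and *Trp63* 0.57 (adjusted p = 0.357, 0.334 and 0.632, limma). The groups of these sums did not overlap, but without *Perp* they did, with 152.1 in control replicate 4 and 147.8 in TGFβ1FKO replicate 3. The part of these markers in the *Hspg2* result was not tested. Of 8 adipocyte markers 3 were listed (*Adipoq*, *Plin1*, *Cidec*, *Lep* and *Cfd* were not), with *Lpl* at 4858 ± 1041 in controls and 5014 ± 967.5 in TGFβ1FKO fibroblasts (SD, n = 4 each). Of 10 macrophage markers 4 were listed (*Ptprc*, *Adgre1*, *Itgam*, *Cd163*, *C1qa* and *C1qb* were not), with *Lyz2* at 287.4 ± 46.0 and 231.0 ± 83.3 (SD, n = 4 each). All 13 fibroblast markers were present and none had an unadjusted p-value under 0.05. *Col1a1*, their most abundant gene, had 653489 ± 54463 and 664781 ± 27436 normalised counts (SD, n = 4 each).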

How the data were processed

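Poly-A RNA of 8 libraries was sequenced in paired, non-directional mode. Per the submitters' processing notes, CASAVA 1.8, HISAT2 2.0.5 (GRCm38), featureCounts 1.5.0-p3, R 4.3.2 and DESeq2 1.42.0 were used. The authors deposited a signal, normalised counts with 0.5 added, for 15111 genes, the lowest with 41 reads in all. Their columns of fold changes, errors, statistics and p-values were not used. With 0.5 subtracted, 100% of the values of each library were whole multiples of the value of 1 read (tolerance 0.1 reads).

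Values were compared as log2(normalised count + 1), which understates changes of low genes, with limma 3.58.1 in R 4.3.3 (mean-variance trend, Benjamini-Hochberg adjustment over all genes). The design named a raw-count test for raw counts and this test for normalised counts, and the latter was used. On the recovered reads, edgeR 4.0.16 called 20 genes and DESeq2 1.42.0 called 56 against 0 and 15 against 0.6. Lengths and positions came from GENCODE M21 (15105 genes matched). All fits were tested on simulated data. Named, with some genes left out of the text, were all members, *Tgfb1*, and, per list, called genes, up to 4 others with the smallest unadjusted p-values under 0.05 and the gene with the highest mean count. Members and lists were chosen with earlier results of these data known. Alternatives covered test, scaling, pseudocount, read minimum, thresholds, replicate block, transcript length and each library left out.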

Additional observations from a re-analysis of the deposited data

Results flagged for a closer look

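In a group of 4 libraries, a value was looked at again where its gap to the nearest of the others exceeded Dixon's critical share of the group's range. Of 124 groups tested, 4 did so, where chance gives about 1 in 20. None was a value of the 10 basement membrane genes or of their ratios. *Mmp14*, the membrane-bound protease, had 33120 normalised counts in TGFβ1FKO replicate 3, against 37522 to 37913 in the other TGFβ1FKO libraries. *Lpl* had 3316 in control replicate 1, against 5140 to 5498 in the other controls, which set the low adipocyte marker sum of 3424 in that library. *Erbb3* had 27.4 in TGFβ1FKO replicate 1, against 11.1 to 12.5 in the others of its group. Control replicate 1 was also the lowest control for *Agrn*.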

How the results depend on the processing

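*Tgfb1* kept its direction and call in all 20 alternatives, and the members' median log2 fold change stayed between 0.04 and 0.13. None of the 10 members was called in any fit at both thresholds. *Agrn* was called with DESeq2 against 0 and no fold threshold, an alternative chosen after seeing the data, and leaving out libraries was not combined with that threshold. Over the whole table, 13 genes were called with limma, 20 with edgeR, 22 with edgeR and TMM, 56 with DESeq2 against 0 and then 0.6, 15 with DESeq2 against 0.6, 75 with no fold threshold there, 25 at an adjusted p-value under 0.1, 3 with at least 10 reads in every library, and between 5 and 32 with a library left out. The cause was not tested. At an unadjusted p-value under 0.05, 2 members passed with limma, 0 with DESeq2 against 0.6, a stricter hypothesis by construction, and between 1 and 3 with a library left out. Between 0 and 1 of the 10 members were free of overlap with a library left out, against between 5.55% and 9.34% of all genes.

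Same-numbered libraries are not stated to share an animal, and their deviations correlated between -0.13 and 0.16, with 2 of 8 libraries closest to their own number. With the replicate number as a block, 31 genes were called over the table and 3 members passed an unadjusted p-value of 0.05; *Agrn* had an adjusted p-value of 0.0505 (limma), and the *Hspg2* to *Agrn* ratio differed by 0.71.

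With libraries left out, signs turned for the ratios of *Lama2* to *Lama4* (-0.02 to 0.09), *Lama5* to *Lama4* (-0.20 to 0.08), *Lamb1* to *Lamb2* (-0.16 to 0.03) and *Nid1* to *Nid2* (-0.27 to 0.00), and for the log2 fold changes of *Lama4* (0.00 to 0.13), *Lama5* (-0.11 to 0.12), *Lamb1* (-0.01 to 0.11), *Nid1* (-0.04 to 0.11), *Fn1* (-0.13 to 0.06), *Sulf2* (-0.09 to 0.05), *Mmp14* (-0.07 to 0.03), *Col1a1* (-0.01 to 0.08), *Pmp22* (-0.02 to 0.13), *Lpl* (-0.12 to 0.18) and *Dag1* (-0.05 to 0.02). With 3 libraries in a group, as with all libraries, no ratio alone could pass the exact permutation test after adjustment over the 5 ratios. Within pairs, that test could not pass before adjustment either. With libraries left out, log2 fold changes kept their sign but moved in size for *Lama2* (0.01 to 0.16), *Lamb2* (0.05 to 0.16), *Lamc1* (0.05 to 0.18) and *Nid2* (0.07 to 0.25). Of 56 genes followed, 37 kept sign and call in all settings and 8 kept their sign while their call moved.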
